A study of Mus musculus with 8 samples.

Results

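The regions described here are the flanks of gaps in the tag map. Tag midpoints of all 8 H3K9me3 ChIP-seq libraries were pooled over chromosomes 1 to 19, and a gap was a stretch of 4 to 9 kb between 2 neighbouring midpoints. A region was the 1 kb on each side of a gap, summed. There were 6241 such regions among 23281 gaps of 1.5 kb and longer, against 16496 gaps of 1.5-4 kb and 282 of 9-20 kb. The rule used where tags lie, over all libraries and time points at once, and took no account of which library a tag came from. As a control, each flank was compared with a 1-kb piece of the same chromosome lying 20 kb further out (outer piece).

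The libraries came from JM8 ES cells of C57BL/6N origin, which carry a conditional *Setdb1* allele over a second targeted allele and a CreERT2 recombinase expressed from *Rosa26*. Cells were taken before treatment (T = 0) and on days 2, 4 and 6 counted from the addition of 0.8 μM 4′OHT (present for 48 h), which activates the recombinase and makes the conditional allele null. The paper names the untreated cells tm1c/tm2 and the treated cells tm1d/tm2, whereas the sample labels write tm1a/tm2 and tm1c/tm2 for the same cells. All libraries thus come from cells with the tm2 allele and the recombinase, and libraries of tm1c/+ control cells and of input DNA were not analysed here, so effects of 4′OHT or time in culture and of *Setdb1* loss cannot be told apart. An antibody similar to one sold by Upstate (Upstate-type antibody) was used at all 4 times (T = 0, T = 2d, T = 4d and T = 6d), and lots 58206 and 638466 of an Abcam antibody at T = 0 and T = 6d. There was 1 library for each antibody and time point, and an antibody is not a biological replicate. Each library of the Upstate-type antibody held 6887819 tags, each of lot 58206 8503927 and each of lot 638466 12194174.

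Setdb1 (also called Eset) is a histone methyltransferase that trimethylates lysine 9 of histone H3. In ES cells it is brought to chromatin by the corepressor KAP1 (Trim28) and KRAB zinc-finger proteins, and H3K9me3 placed in this way silences endogenous retroviruses (ERVs) such as IAP and ETn/MusD elements. LINE-1 elements, the other large family of long mouse repeats, are silenced by several pathways. Many full-length copies of these elements resemble each other so closely that short tags can hardly be placed inside them. Tags that map uniquely are then found mainly in the unique DNA beside such a copy. The question put to the gap flanks was therefore whether the mark beside long unmappable stretches changed after 4′OHT. Which repeat, if any, lies in each gap was not determined, since the coordinates are those of mm9 and no annotation of that build was used here.

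The gaps had a median length of 5939 bp (quartiles 4837 and 6482 bp) and together covered 36.0 Mb, or 1.45% of chromosomes 1 to 19. They were long for the depth of the map, in which pooled tags lay 36.8 bp apart on average. Their lengths were uneven, with 1822 gaps of 4-5 kb, 1410 of 5-6 kb, 2476 of 6-7 kb, 395 of 7-8 kb and 138 of 8-9 kb. The commonest length was 6300 to 6400 bp, with 361 gaps. Gaps occurred on all 19 chromosomes, from 1.66 per Mb on chromosome 19 to 3.40 per Mb on chromosome 14. They often lay close together, and 3196 regions (51.2%) had another gap within 25 kb. Tags had been extended to 300 bp without strand, so the midpoint of a tag next to an unmappable stretch can fall inside it. A gap can also take in mappable DNA that holds no tag, so the length of a gap is only a guide to that of the stretch it marks.

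The gaps next to the length limits held few tags. The 3 shortest regions, with gaps of 4001, 4002 and 4003 bp, had 1, 4 and 2 flank tags at T = 0 with the Upstate-type antibody, and the 3 gaps just too short, all of 3999 bp, had 5, 1 and 0. At the upper limit, gaps of 8953, 8973 and 8999 bp had 1, 1 and 0 tags, and the next longer ones, of 9010, 9068 and 9081 bp, had 0 each. Over all regions the median was 35 pooled flank tags (range 2 to 803) and 42 pooled outer tags, and 930 regions had at most 10 pooled flank tags. Single regions were therefore mostly too shallow to compare, and the totals over all 6241 regions were compared first.

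At T = 0 the flanks held more H3K9me3 tags than the outer pieces with the Upstate-type antibody, at T = 2d about as many, and from T = 4d fewer. The flanks had 28718 tags at T = 0 and the outer pieces 23573, a flank-to-outer ratio of 1.22 (95% interval 1.20 to 1.24, counting error only). Day 2 gave a ratio of 1.01 (23144 flank tags and 22982 outer tags), day 4 a ratio of 0.736 (18116 and 24627) and day 6 a ratio of 0.698 (16866 and 24154). With lot 58206 the ratio was 1.11 at T = 0 (38802 and 35059 tags) and 0.848 at T = 6d (29359 and 34605). With lot 638466 it was 1.01 at T = 0 (48967 and 48604 tags) and 0.796 at T = 6d (41566 and 52211). All 3 antibodies gave a lower ratio at T = 6d than at T = 0, and no interval of a T = 6d library overlapped that of its T = 0 library.

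**Figure D1:**
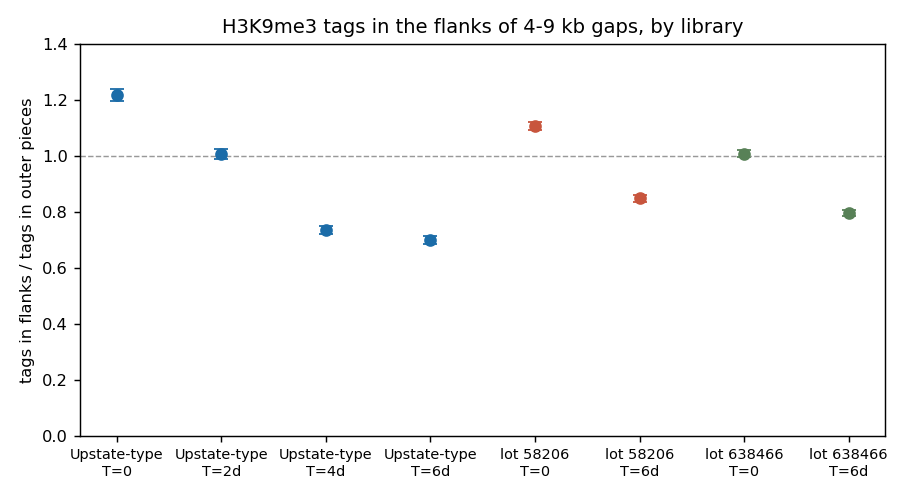
Flank-to-outer ratio of tags over all 6241 regions (y axis, no unit) in each of the 8 libraries (x axis), with 95% intervals for counting error as bars, many of them about as small as the points. The Upstate-type libraries run from 1.22 at T = 0 to 0.698 at T = 6d, and both Abcam lots lie lower at T = 6d than at T = 0.

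Within an antibody, the 4 tag totals of each pair of libraries were put to Fisher's exact test (two-sided), and a change was called at P below 0.01 with more than a 1.5-fold difference of the ratio. The ratio at T = 2d was 0.827 times that at T = 0 (95% interval 0.806 to 0.848; Fisher's exact test, P = 4.74e-50), short of 1.5-fold. Both later falls were called, to 0.604 times (0.588 to 0.620) on day 4 and 0.573 times (0.558 to 0.588) on day 6. With each region given the same weight they were 0.714 and 0.690 times, short of 1.5-fold. The step between days 2 and 4 was the largest of the 3, at 0.730 times (Fisher's exact test, P = 6.87e-120), and the step between days 4 and 6 was 0.949 times (Fisher's exact test, P = 2.04e-04). With lot 58206 the ratio at T = 6d was 0.767 times that at T = 0 (0.750 to 0.783; Fisher's exact test, P = 2.33e-133) and with lot 638466 0.790 times (0.776 to 0.805; Fisher's exact test, P = 1.92e-145), and neither reached 1.5-fold. With 1 library on each side these tests compare libraries and not conditions, and neighbouring regions can share flanks (152 pairs did). Fewer cells carrying the mark and less of the mark in each cell cannot be told apart.

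The outer pieces stayed near their T = 0 numbers, with 0.975 to 1.04 times the T = 0 tags in the later Upstate-type libraries, 0.987 times in lot 58206 and 1.07 times in lot 638466. The fall of the ratio thus came mostly from flank tags, which were 0.587, 0.757 and 0.849 times those at T = 0 for the 3 antibodies at T = 6d. Both sides of the gaps contributed, and the left flanks held 0.971 to 1.005 times the tags of the right flanks in every library. Each of the 19 chromosomes had a lower ratio than at T = 0 in all 5 comparisons. With the Upstate-type antibody at T = 6d the change lay between 0.468 times on chromosome 11 and 0.623 times on chromosome 9. Lot 58206 gave 0.629 times on chromosome 11 to 0.918 times on chromosome 19, and lot 638466 gave 0.720 times on chromosome 13 to 0.852 times on chromosome 1.

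A ratio below 1 does not by itself mean less of the mark than in the surroundings, since flanks could hold fewer tags where fewer positions can be mapped. Of the 100-bp tiles of the flanks, 64.4% had a tag in any library, against 73.0% of the tiles of the outer pieces. For gaps of 4-6 kb these shares were 52.9% and 71.3%, for 6-6.5 kb 79.0% and 78.2%, and for 6.75-7 kb 82.9% and 76.1%. The same positions are compared at each time point, so levels between gap lengths carry this difference whereas changes over time within a library series do not.

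The excess of tags at T = 0 lay close to the gaps. With the Upstate-type antibody the tag density in the first 250 bp was 0.988 times that of the outer pieces, and it was greatest from 250 to 500 bp, at 1.34 times. It then went down to 1.12 times at 1750 to 2000 bp and to 1.01 times at 4250 to 4500 bp. At T = 6d the density was lowest next to the gap, at 0.589 times, and was 0.853 times at 1750 to 2000 bp and 0.933 times at 4250 to 4500 bp. The first 250 bp also held fewer tags than the next 250 bp at T = 0 with both Abcam lots (0.994 against 1.15 times for lot 58206, and 0.920 against 1.04 times for lot 638466). With lot 58206 the density was likewise greatest at 250 to 500 bp. With lot 638466 it was greatest beyond the 1-kb flanks, at 1.08 times from 1750 to 2000 bp, although its values differed little from 250 to 2000 bp (1.02 to 1.08 times). The density at T = 6d over T = 0 in the first 250 bp was 0.596 times (Upstate-type), 0.890 times (lot 58206) and 0.714 times (lot 638466). From 500 to 750 bp it was 0.582, 0.714 and 0.823 times, so with lot 58206 the fall was smaller next to the gap.

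**Figure D2:**
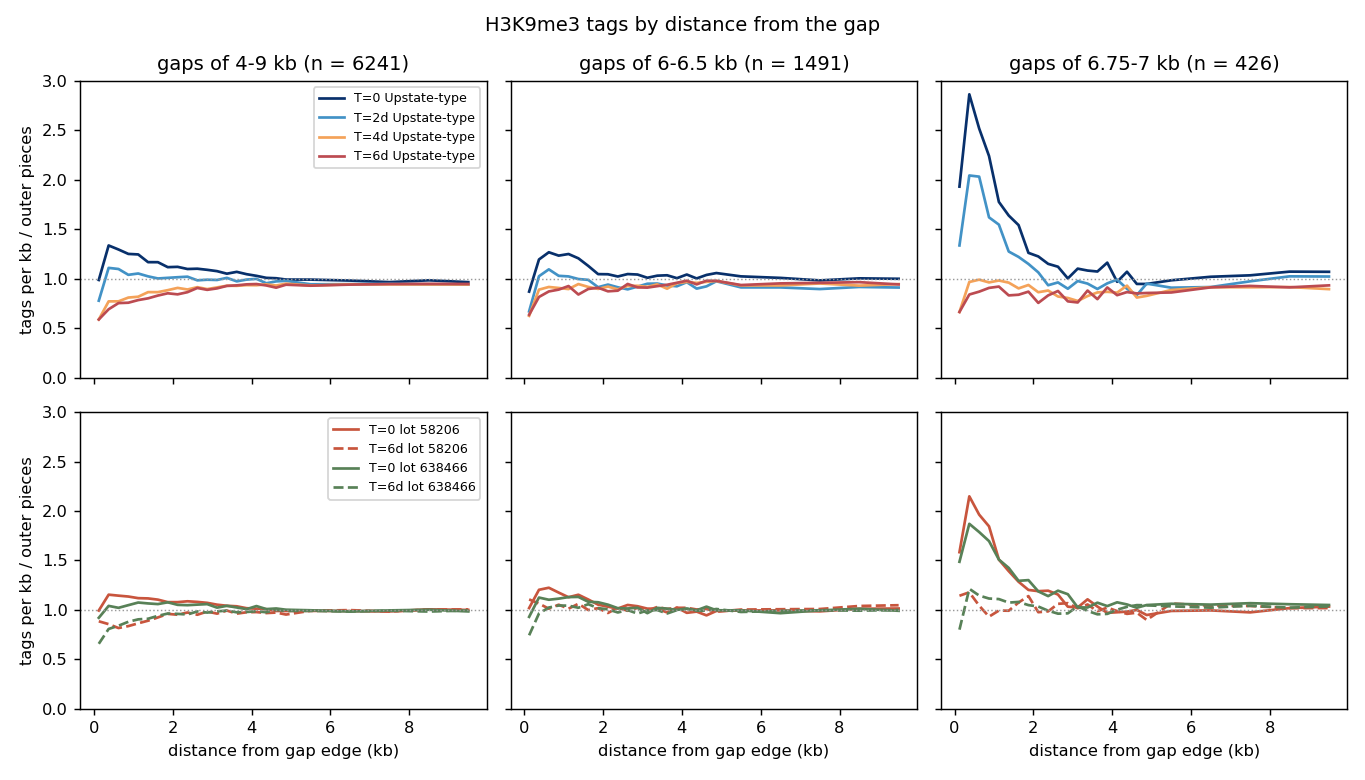
Tags per kb relative to the outer pieces of the same library (y axis, no unit) by distance from the gap edge in kb (x axis), for all gaps and for 2 sets of gap length, with the Upstate-type antibody in the upper row and both Abcam lots in the lower row. In gaps of 6.75-7 kb the Upstate-type curve at T = 0 reaches 2.87 at 250 to 500 bp, where that at T = 6d is at 0.841.

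The level at T = 0 and the change after 4′OHT both depended on gap length, with one narrow set of lengths standing out. In 100-bp steps of length with at least 30 gaps, the 209 gaps of 6800 to 6900 bp had the highest T = 0 ratio of 35 steps with every antibody, of 2.64 (Upstate-type), 2.04 (lot 58206) and 1.83 (lot 638466). The greatest falls lay in the same place. They were at 6900 to 7000 bp (139 gaps) with the Upstate-type antibody, 0.315 times T = 0 at T = 6d, and at 6800 to 6900 bp with lots 58206 and 638466, 0.498 and 0.555 times. By contrast, the 309 gaps of 6100 to 6200 bp, near the commonest length, had the smallest fall at T = 6d with the Upstate-type antibody (0.840 times) and with lot 638466 (0.931 times). These steps, and the sets of lengths below, were picked out after their values had been seen and are described without a test.

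**Figure D3:**
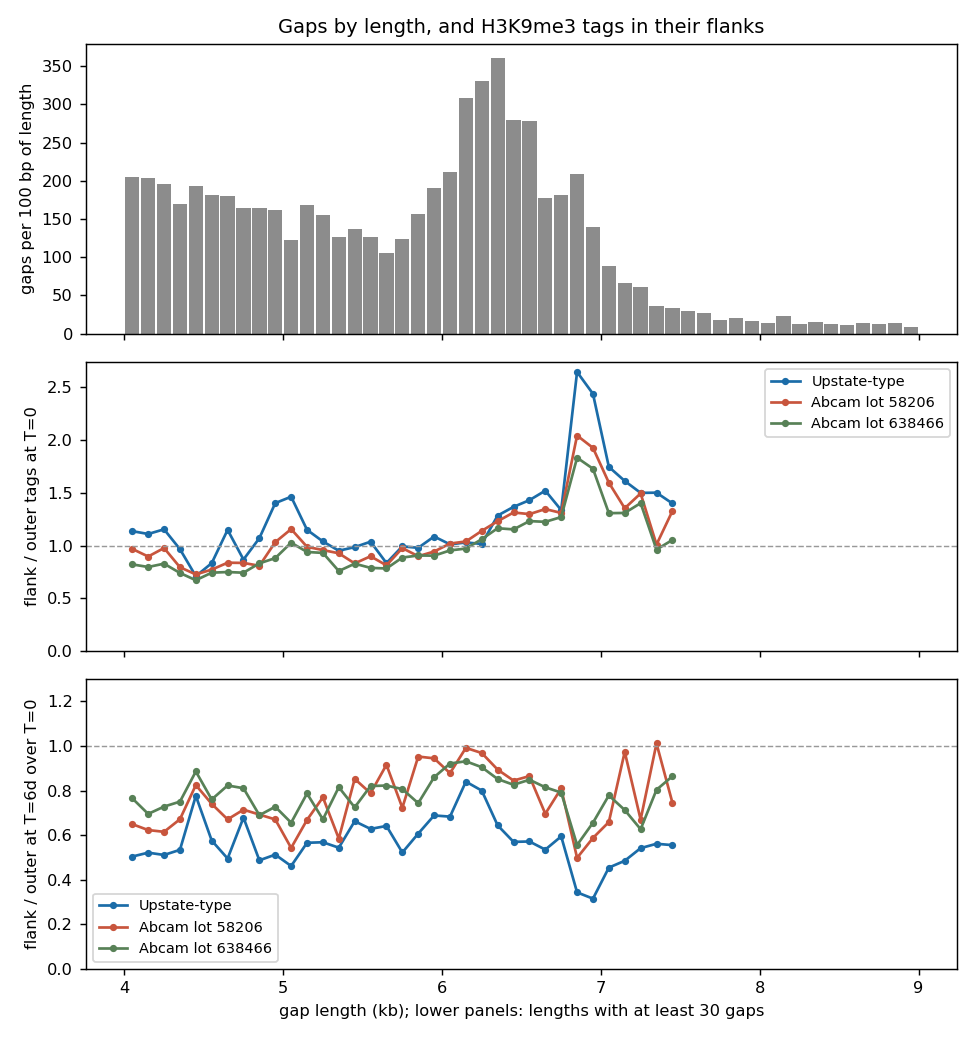
Number of gaps (top), flank-to-outer ratio at T = 0 (middle) and that ratio at T = 6d over T = 0 (bottom) by gap length in kb (x axis, steps of 100 bp), with one line for each antibody in the lower panels. The number of gaps peaks at 6.3 to 6.4 kb, whereas the T = 0 ratio of all 3 antibodies peaks at 6.8 to 6.9 kb, where the bottom lines are at or near their lowest.

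The 426 regions with gaps of 6.75-7 kb made up 6.83% of all regions. Over the Upstate-type time course their ratio was 2.39, 1.76, 0.897 and 0.821, and each region had 9.28 flank tags on average before treatment and 3.46 on day 6. The change at T = 6d was 0.344 times (95% interval 0.314 to 0.376) with this antibody, 0.570 times with lot 58206 (from 1.89 to 1.07) and 0.625 times with lot 638466 (from 1.71 to 1.07). Of the net loss of flank tags between T = 0 and T = 6d, these regions held 20.9% (Upstate-type), 23.9% (lot 58206) and 25.7% (lot 638466). The 1491 regions with gaps of 6-6.5 kb had ratios of 1.14, 1.16 and 1.07 at T = 0 and changes of 0.704, 0.916 and 0.884 times in the same order of antibodies. A smaller rise of the T = 0 ratio lay at 4.9-5.1 kb (284 regions), where it was 1.43 (Upstate-type), 1.09 (lot 58206) and 0.946 (lot 638466), and the changes at T = 6d were 0.486, 0.607 and 0.692 times. The fall was not confined to these lengths, since all regions other than those of 6.75-7 kb together gave 0.609, 0.796 and 0.812 times.

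Gaps outside 4-9 kb were used to see how far the fall was shared. At 1.5-4 kb the ratio at T = 6d over T = 0 was 0.733 (Upstate-type), 0.820 (lot 58206) and 0.849 (lot 638466). Regions of 4-9 kb had a lower value with all 3 antibodies, by a mean of -0.19 on the log2 scale (SD 0.15, n = 3 antibodies), with -0.36 for the Upstate-type antibody against -0.097 and -0.10 for lots 58206 and 638466. Without the Upstate-type antibody the mean was -0.10. With 3 values the exact sign-flip permutation test (two-sided) cannot give a P below 0.25, which is what it gave. For gaps of 9-20 kb the values were 0.890, 1.10 and 1.13 times, with 95% intervals that include 1 for each antibody (0.741 to 1.07, 0.949 to 1.28 and 0.984 to 1.29). Their flank tags were 0.750, 1.03 and 0.984 times those at T = 0, and their outer tags 0.842, 0.932 and 0.873 times. The difference from 4-9 kb was -0.56 on the log2 scale (SD 0.067, n = 3 antibodies; exact sign-flip permutation test, two-sided, P = 0.25), and was -0.34 with all deposited tags in place of the outer pieces. Within 4-9 kb the classes of 1 kb ran from 0.534 times (7-8 kb) to 0.731 times (8-9 kb) with the Upstate-type antibody at T = 6d.

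The fall was next described by how much of the mark a region had at T = 0, taking that level from the antibodies that were not being compared. Regions were sorted by the T = 0 tags of both Abcam lots, pooled, relative to the median of 2-kb windows of the genome (17 tags), and the change was read with the Upstate-type antibody. The 4199 regions below the median window gave a ratio at T = 6d of 0.766 times that at T = 0, the 1710 at 1 to 2 times the median 0.562 times, the 229 at 2 to 3 times 0.293 times and the 103 at 3 times and over 0.276 times. Sorted the other way round, by the Upstate-type library at T = 0, the 3433 regions below the median gave 0.973 times with lot 58206 (95% interval 0.941 to 1.01) and 0.928 times with lot 638466, and the 475 at 3 times and over gave 0.389 and 0.506 times. With lot 638466 the 3433 regions held 16210 flank tags at T = 0 and 16449 at T = 6d, so their flank tags did not fall. The fall of the ratio was larger in regions with more of the mark at T = 0 in both directions of choice, and lay within counting error of 1 for regions below the median with lot 58206. Both choices were made on T = 0 libraries, so a level common to every T = 0 library enters this order.

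**Figure D4:**
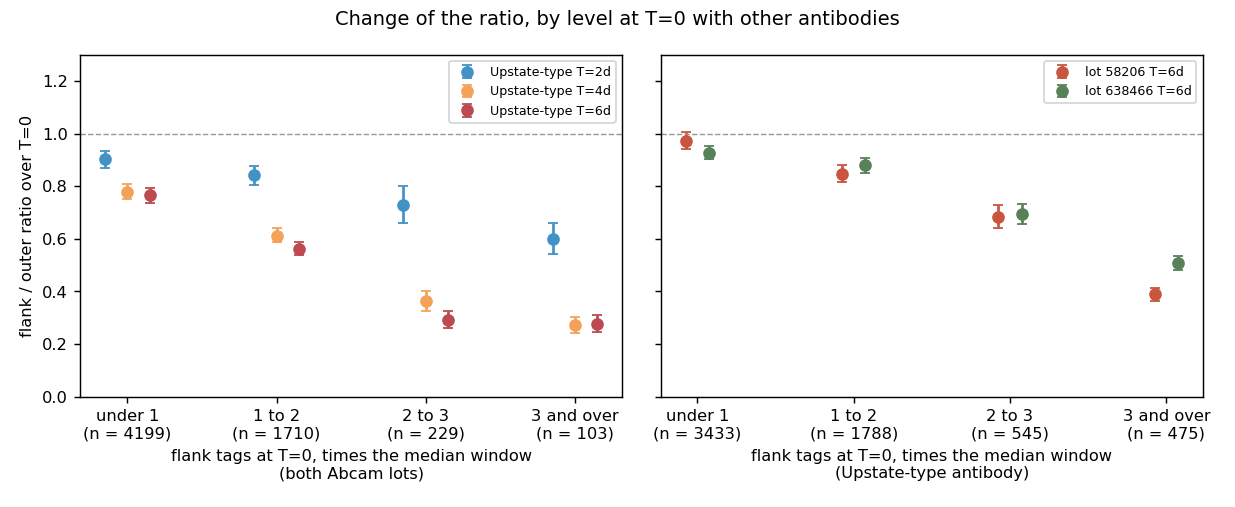
Flank-to-outer ratio at a later time point over that at T = 0 (y axis, no unit) for regions sorted by their flank tags at T = 0 in times the median 2-kb window (x axis), with 95% intervals for counting error. The libraries used for sorting are of other antibodies than those plotted, and the points go down from left to right, to 0.276 for the Upstate-type antibody at T = 6d and to 0.389 and 0.506 for the Abcam lots.

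The 103 regions at 3 times the median or more (at least 51 pooled tags) are called enriched regions. They were 1.65% of the regions, against 0.558% of the 2-kb windows that held a tag, and 5 outer pairs (0.0801%) reached the same level. With the Upstate-type antibody at T = 0, 475 regions (7.61%) were at 3 times the median or more, against 9.42% of windows and 209 outer pairs (3.35%). The choices overlapped in 100 regions, 97.1% of those chosen on the Abcam lots and 21.1% of those chosen on the Upstate-type library. Of the 103, 35 (34.0%) had gaps of 6.75-7 kb. The mark was on both sides in 51 of them, with at least 25.5 tags on each side.

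In the Upstate-type time course, the enriched regions as a group came down to about the level of their outer pieces by T = 4d. The lowest, median and highest numbers of tags were 7, 27 and 104 before treatment, 3, 16 and 110 on day 2, 0, 6 and 108 on day 4, and 0, 5 and 85 on day 6. The medians of their outer pieces were 7, 6, 5 and 6. Single regions differed, and 4, 17, 54 and 53 of the 103 had no more flank tags than tags in their own outer pieces at the 4 times. Fisher's exact test with the 1.5-fold limit was applied to each region, with the enriched 2-kb windows of the genome (6542) as the background. At T = 2d it called 14 of 103 lower (13.6%; 95% exact binomial interval 7.63 to 21.8), where 8.35% of the background windows were called. At T = 4d it called 83 lower (80.6%; 71.6 to 87.7; background 26.7%), and at T = 6d also 83 (80.6%; background 30.4%), of which 75 were called at both times. The binomial intervals treat regions as independent. All calls of a day come from the same pair of libraries, so the intervals do not measure spread between cultures. With flanks of 500 bp (132 enriched regions) the shares at T = 2d, T = 4d and T = 6d were 3.79%, 37.9% and 43.2%. Shares of windows under this setting are not given here, and the background of 2-kb windows does not apply to them. Regions and windows were both chosen for a high level at T = 0, so that a level common to every T = 0 library enters both shares. When T = 6d tags of both Abcam lots were added to the choice (made after the data were seen), 20 regions qualified and 16 of them were called lower at T = 6d, against 5.94% of 7674 windows chosen in the same way. Among the 103, no region was called higher on any of these days, on which 1.02%, 0.382% and 0.459% of the windows were.

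The background windows held fewer tags (median 11 at T = 0), so a fall of the same size is called less often in them, and the summed tags were compared as well. The enriched regions had 3327 tags at T = 0, 2160 on day 2 (0.649 times), 876 on day 4 (0.263 times) and 832 on day 6. The summed tags of the enriched windows went to 0.826, 0.562 and 0.477 times, and the 832 tags on day 6 correspond to a log2 ratio of regions to windows of -0.93. For the 475 regions chosen on the Upstate-type library, summed tags went to 0.366 times with lot 58206 and to 0.481 times with lot 638466 by day 6, against 0.741 and 0.790 times for windows chosen alike. Over the 3 antibodies this log2 ratio was -0.93, -1.02 and -0.72 (mean -0.89, SD 0.16; exact sign-flip permutation test, two-sided, P = 0.25, the smallest P that 3 values allow). Of these 475 regions, 152 were called lower with lot 58206 (32.0%; background 4.87%) and 122 with lot 638466 (25.7%; background 4.48%), and none with either lot was called higher (background 0.797% and 0.138%).

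**Figure D5:**
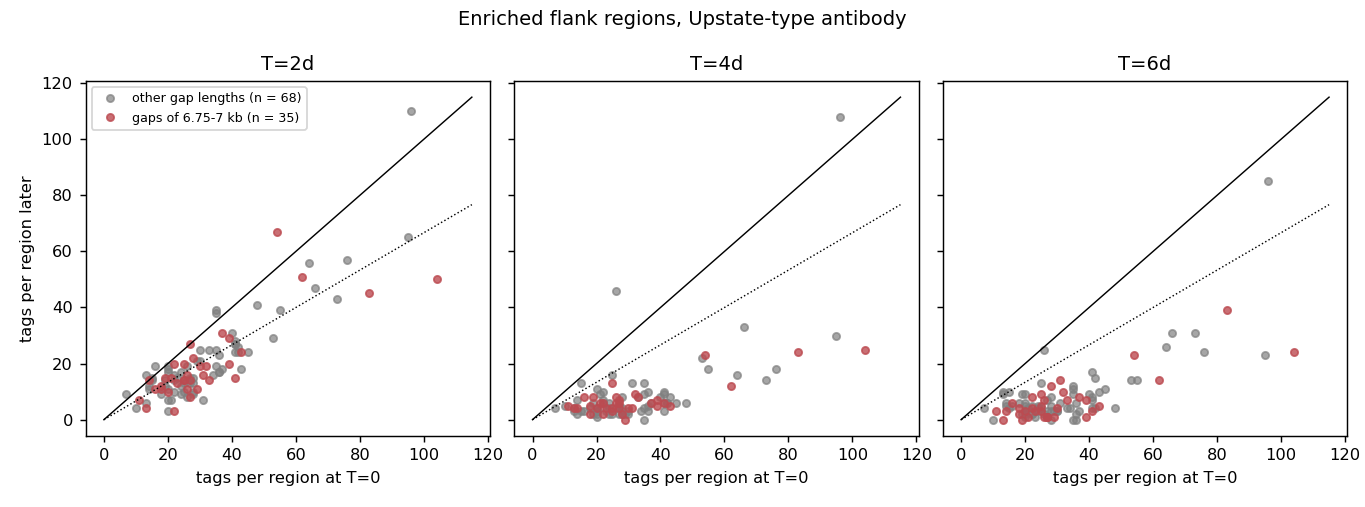
Upstate-type tags in the 103 enriched regions before treatment (x axis) and on days 2, 4 and 6 (y axis), one point for each region, with equal tags as a solid line and a 1.5-fold fall as a dotted line. At T = 2d the points lie around the dotted line, and by T = 4d most are close to the bottom, with one region staying at 108 and then 85 tags.

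Relative to the time point before, the summed tags of the enriched regions went to 0.649 times by day 2, to 0.406 times between days 2 and 4 and from 876 to 832 tags between days 4 and 6. The windows went to 0.826, 0.681 and 0.849 times. Between days 2 and 4, 40 regions were called lower (background 10.1% of windows) and 1 higher (0.183%). Between days 4 and 6, 1 was called lower (1.79%) and 0 higher (0.352%). Tags went down at every step in 38 regions (36.9%), as they did in 19.2% of the windows. On day 4, 2 of the 103 regions had no tag left, and on day 6 it was 6.

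T = 6d and T = 0 were also compared over the 3 antibodies with limma, for regions and windows with a mean of 2 times the median window or more. This limit left 183 of the 6241 regions, and 145 of the 183 were above it at T = 0 and not at T = 6d, so that a fall was built into most of them and their counts are given as a description. Of the 183, 118 were lower (64.5%; Benjamini-Hochberg adjusted P below 0.05 and over 1.5-fold), where 4.39% of all 73764 regions and windows tested were. The count was 23 to 74 with 1 antibody left out, and 0 without the antibody as a block or without the limit. None of the 183 was called higher, where 0.0285% of all features were. At an unadjusted P below 0.05 none of them was higher either, where 0.949% of all features were. Among the 31 regions above the limit at both time points, 9 were lower (29.0%), where 0.614% of all 49811 features above it at both time points were. The median log2 fold change was -1.33 for the 183 regions and -0.11 for all features tested. Of the short gaps of 1.5-4 kb, 58 of 87 tested were lower (66.7%). The limit left 87 of 16496 short gaps and 183 of 6241 regions, so these shares do not compare the gap lengths. Without any limit on the level, 1258 of the 6241 regions (20.2%) had fewer tags at T = 6d than at T = 0 with every antibody and 344 (5.51%) had more, against 11.7% and 11.3% of all windows with a tag.

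The 10 regions with the largest fall in limma had log2 fold changes from -2.55 to -2.09 (SE 0.25 to 0.43, adjusted P from 2.44e-04 to 0.0029). All 10 calls were lost without the antibody as a block and without the limit on the level, and 7 were lost with both Abcam lots alone. Only 3 of them were above the limit at both time points, and all 10 were picked for their fall. Their P-values are therefore given as a description. Their positions are given as the midpoints at both ends of the gap, in mm9, and 5 of the 10 had gaps of 6.75-7 kb. The largest fall was at chromosome 13, 43373008 to 43379927 (gap of 6919 bp). Over the Upstate-type time course its flanks held 39, 20, 7 and 1 tags. There were 54 and 7 tags of lot 58206 at T = 0 and T = 6d, and 47 and 7 of lot 638466. Both sides lost tags, from 17 to 0 on the left and from 22 to 1 on the right with the Upstate-type antibody.

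In 2 of the 10 regions the tags lay almost wholly on one side of the gap. At chromosome 12, 72019147 to 72024022 (4875 bp), the left flank held 35 of 36 Upstate-type tags at T = 0, and the region held 17, 5 and 0 tags at the later times. Lot 58206 gave 31 and 4 tags there, and lot 638466 35 and 10. At chromosome 8, 23661780 to 23667669 (5889 bp), 40 of 41 tags lay in the left flank at T = 0, and 28, 10 and 7 tags remained later. Lot 58206 gave 44 and 3 tags and lot 638466 37 and 8. In the other eight regions both flanks held tags at T = 0 with every antibody.

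The regions with most tags among the 10 still held over 20 Upstate-type tags on day 6. At chromosome 11, 6041622 to 6048492 (6870 bp), Upstate-type tags went from 104 to 50, 25 and 24, those of lot 58206 from 69 to 5 and those of lot 638466 from 68 to 17. Its outer pieces held 20, 16, 21 and 21 Upstate-type tags, so that by day 4 the flanks were near the level of their surroundings. At chromosome 5, 106153312 to 106158303 (4991 bp), they went from 95 to 65, 30 and 23, from 62 to 11 and from 77 to 11. At chromosome 17, 36144231 to 36151042 (6811 bp), they went from 83 to 45, 24 and 39, from 75 to 8 and from 82 to 9. In the last region the Upstate-type number was higher on day 6 than on day 4 (39 and 24 tags, not tested), whereas the Abcam lots gave 8 and 9 tags on day 6.

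The other named falls had little left at T = 6d with most antibodies. Upstate-type tags at chromosome 2, 146821983 to 146830773 (8790 bp), numbered 28, 9, 2 and 0 over the time course, while lot 58206 gave 27 and 2 and lot 638466 30 and 8. At chromosome 10, 70254276 to 70261247 (6971 bp), the numbers were 27, 8, 7 and 1, with 29 and 2 and 36 and 11 for the Abcam lots. At chromosome 4, 107956815 to 107963619 (6804 bp), they were 62, 51, 12 and 14, with 53 and 8 and 52 and 6. Here the fall came late, and 51 of 62 tags were still present at T = 2d. At chromosome 2, 5605202 to 5611386 (6184 bp), they were 37, 18, 6 and 3, with 39 and 5 and 42 and 11. The outer pieces of these regions held 1 to 26 Upstate-type tags at T = 0.

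Of the 5 regions with most T = 0 tags of both Abcam lots, 3 are named above and another, at chromosome 3, 51044023 to 51049080 (5057 bp), held 73, 43, 14 and 31 Upstate-type tags, 61 and 14 of lot 58206, and 66 and 11 of lot 638466. Its log2 fold change was -1.69 (SE 0.27; limma, adjusted P = 8.89e-04). The P-values here are given as a description, since these 5 regions were picked on T = 0 tags that limma also used. The region with most tags did not fall. At chromosome 9, 3010689 to 3015146 (4457 bp), near the start of the mapped sequence, it held 96, 110, 108 and 85 tags over the time course, 97 and 100 with lot 58206 and 98 and 109 with lot 638466. Its log2 fold change was 0.0060 (SE 0.22; limma, adjusted P = 0.998). Nearly all of these tags lay in the right flank (92 of 96 at T = 0), and its outer pieces held 127, 148, 133 and 112 Upstate-type tags, so the high level reached well beyond the gap.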

How the data were processed

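H3K9me3 ChIP-seq tags of 8 libraries were used, grouped by the time point in the sample labels. Per the labels and the supplementary antibody table, the authors mapped tags uniquely with at most 1 mismatch to mm9, set all libraries of one antibody to an equal tag number, and extended each tag to 300 bp. The deposited intervals carry no strand and no values per region. The aligner is not given in the sources used here. Since tag numbers were made equal, a change shared by the whole genome would not be seen. No start position occurred more than once in a library. The number of columns of other samples set aside was 0.

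Gaps, flanks and outer pieces were counted by tag midpoint in Python 3.11.15 (scipy 1.17.1, pandas 2.3.3, numpy 2.4.6), and plotted with matplotlib 3.10.9. Fisher's exact test used P below 0.01 and a 1.5-fold change. limma 3.58.1 in R 4.3.3 (eBayes with trend, antibody as a block) was given log2 values of tags scaled to the library total (CPM) plus 0.5, over regions and 2-kb windows averaging at least 2 times the median. Its P-values measure the spread between antibodies. Same-numbered libraries share the antibody, and their deviations from the means of the time points correlated with r = 0.893, 0.876 and 0.310 across features. On simulated data with 200 regions or windows changed 3-fold, Fisher's exact test called 131 (65.5%) for the Upstate-type comparison at T = 6d (1000 regions), and limma called 132 (66.0%) for the comparison over 3 antibodies (73764 features).

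Named regions were the 10 largest falls and 4 largest rises called by limma with one direction in every antibody (no rise qualified), the 5 with most Abcam T = 0 tags, one per 50 kb, and those next to the length limits. Regions, length classes and tests were chosen with earlier results of these data known. Alternatives were other flank lengths, trimming 200 bp next to the gap, isolated gaps only, other pseudocounts, filters, enrichment limits and scalings, other libraries for finding gaps, no antibody term, and leaving out each antibody. The sequence of GRCm38 was not used, since coordinates were not converted between builds.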

Additional observations from a re-analysis of the deposited data

How the results depend on the processing

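The lower flank-to-outer ratio after 4′OHT kept its direction in every comparison under all alternatives run. With each region counted alike, as a geometric mean of tags + 0.5, it was 0.897, 0.714 and 0.690 times T = 0 for the Upstate-type antibody at T = 2d, T = 4d and T = 6d, 0.851 times for lot 58206 and 0.843 times for lot 638466, so that the values at T = 4d and T = 6d were no longer past 1.5-fold. With flanks of 2 kb the value at T = 4d was 0.673 times, also short of 1.5-fold. The difference between gaps of 4-9 kb and 9-20 kb, -0.56 on the log2 scale, was -0.39 with outer pieces at 10 kb or 50 kb and -0.34 with all deposited tags as background. The share of enriched regions called lower moved with flank length and enrichment limit, which set how many tags a region has. Given for the Upstate-type antibody at T = 2d, T = 4d and T = 6d and then lots 58206 and 638466, it was 3.79%, 37.9%, 43.2%, 11.3% and 11.1% with flanks of 500 bp, and 28.6%, 92.9%, 92.9%, 56.5% and 50% at 5 times the median. Flanks of 2 kb gave 37.8% at T = 2d, 50.1% with lot 58206 and 41.6% with lot 638466. Leaving out the 200 bp next to the gap gave 63.9% at T = 4d, 69.4% at T = 6d, and 23.7% and 16.5% with the lots, and 2 times the median gave 50.6%, 55.7%, 18.1% and 14.2%. Scaling to the outer pieces gave 32.4% with lot 638466. Shares of windows under these settings are not given here, so these values do not show how the regions compared with the genome. With regions chosen on T = 0 and T = 6d together, an alternative added after seeing the data, the shares were 46.3% and 41.8% of 201 regions for lots 58206 and 638466, and 80.0% of 20 regions for the Upstate-type antibody at T = 6d. Of windows chosen in the same way, 3.45% and 3.22% of 99629 and 5.94% of 7674 were called lower.

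The limma count of 118 lower regions (64.5%; 4.39% of all features tested) was 77 of 168 with flanks of 500 bp (45.8%; 3.13% of all) and 205 of 1715 with a filter of 1 times the median (12.0%; 1.10% of all). It was 0 without a filter (6240 tested, of which 869 were lower and 98 higher at an unadjusted P below 0.05, or 13.9% and 1.57%, against 5.14% and 3.51% of all 1195026 features), and 0 without the replicate block, that is, without the antibody that pairs the libraries (37 lower and 0 higher at an unadjusted P below 0.05, where 0.983% of all features were lower). The cause was not tested. Leaving out one antibody gave 23 to 74 regions: 23 with both Abcam lots alone (12.6%; 1.07% of all features), 44 when lot 58206 was left out (24.0%; 1.35%) and 74 when lot 638466 was (40.4%; 2.48%). All 10 named falls lost their call without a filter and without the block, 7 with both Abcam lots alone and 1 when lot 638466 was left out, with no change of sign. Regions of few tags (930 had at most 10 pooled flank tags) could not be compared singly, and differences between gap lengths rest on 3 antibodies.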
